A study of Homo sapiens with 9 samples.

Results

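The p53 target genes examined here are CDKN1A, MDM2, BBC3, BAX, TP53I3, SESN1, FAS, TNFRSF10B, GDF15 and ZMAT3, a set given by gene symbol. The cells were HepG2, a long-established line from a human liver tumour that has hepatocyte features and keeps functional p53. Of these 10 genes, 9 had a transcript cluster (the probe set of 1 transcript locus) in the platform annotation, with 1 cluster each, out of 17687 genes in all. The expression of BBC3, which encodes the pro-apoptotic protein PUMA, was not analysed here. The 3 groups held 3 arrays each and consisted of untreated HepG2 cells, cells given recombinant SPARC at 200 ng/ml and cells given it at 800 ng/ml, 24 h after treatment. The extraction protocol speaks of 800 ng/ml and untreated cells alone, whereas the sample labels give both doses. SPARC is a secreted matricellular glycoprotein, and the comparisons ask how its addition alters expression in these cells. Labels do not say whether the replicates were separate cultures, so each p-value reflects the variation of these samples alone, which may be technical.

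The transcription factor p53 is stabilised by DNA damage and other stresses and binds response elements in its target genes. Its targets halt the cell cycle, set off apoptosis, adjust metabolism and redox balance, and include MDM2, the ubiquitin ligase that returns p53 to a low level. In unstressed cells with functional p53 many of these genes keep a basal expression, and several of them, GDF15 and TNFRSF10B among them, also respond to the ATF4 and CHOP arm of the stress response.

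The response element of p53 consists of a pair of adjoining decamers, each of 10 bases, and the promoter windows that hold such a pair are shown because the same factor links these genes. RefSeq promoter windows of assembly GRCh38.p14, each running from 250 bases before to 50 bases after a transcription start, were found for 9 of the 10 genes, with 17 windows in total. TNFRSF10B had no window and was not searched, whereas BBC3 had 1. The canonical p53 decamer, which reads the same on both strands, was searched without mismatch and as an adjoining pair of 20 bases with at most 3 mismatches. A pair was present in the windows of MDM2, FAS, SESN1 and GDF15, and the capitals mark it. MDM2 held 2 pairs ahead of internal starts, with 2 and 3 mismatches, FAS had 1 with 2 mismatches, and SESN1 and GDF15 each had 1 with 3 mismatches. The printed stretches, which except for GDF15 include 15 bases on either side of the pair, lie on the plus strand at chr12:68808908-68808957 and chr12:68808946-68808995 for MDM2, at chr10:88991294-88991343 for FAS, on the minus strand at chr6:109009003-109009052 for SESN1, and on the plus strand at chr19:18386186-18386205 for GDF15.
MDM2, upstream pair: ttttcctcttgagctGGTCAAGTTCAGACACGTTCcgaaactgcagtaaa
MDM2, downstream pair: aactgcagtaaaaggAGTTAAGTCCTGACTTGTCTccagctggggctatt
FAS: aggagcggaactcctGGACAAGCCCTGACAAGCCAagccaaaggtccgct
SESN1: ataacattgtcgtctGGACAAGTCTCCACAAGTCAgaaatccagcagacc
GDF15: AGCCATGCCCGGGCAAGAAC

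The MDM2 pairs began 94 and 56 bases before 1 of its 4 annotated starts, and 101 and 63 bases before another. The FAS pair began 122 bases before 1 of its 3 starts and the SESN1 pair 49 bases before 1 of its 3 starts, whereas the GDF15 pair began at base 29 of the transcript. Of all 35116 windows, 5.2% held a pair with at most 3 mismatches and 0.649% a pair with at most 2. An exact decamer was present in 6.63% of all windows and, among the target genes, in 1 window each of FAS and SESN1, as the first decamer of the pair. The letters CATG, a core that some decamers contain and that was searched on its own, were present in 54.9% of all windows and in 6 of the 17 windows of these genes. A match is a description of the letters, and no binding was measured. Sequence outside these windows was not searched, so a window without a pair says nothing of the rest of the gene.

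Untreated replicate 2 differed from the rest of the series. It correlated at 0.891 to 0.920 with the other 8 arrays, which correlated among themselves at 0.979 to 0.991 (Pearson, over transcript clusters). Among the 4422 brightest genes its median log2 deviation from the mean of those 8 arrays was −0.78, and among an equal share of the dimmest genes it was 0.35. Of 10 hepatocyte markers 9 were measured, with array means between 10.1 and 10.4 log2 units in untreated cells, between 10.3 and 10.4 at 200 ng/ml, and at 10.4 in each of the 800 ng/ml arrays. ALB, the plasma protein albumin, was at 12.1 to 12.5 over the 9 arrays. Of 12 neural and glial markers 11 were measured, and their array mean was 5.89 and 5.91 in 800 ng/ml replicates 2 and 3 against 4.46 in replicate 1, 4.28 to 4.68 in untreated cells and 4.18 to 4.42 at 200 ng/ml. GFAP, an astrocyte filament protein, was at 7.88 and 7.75 in those 2 arrays and between 4.50 and 5.57 elsewhere. For blood and Kupffer cell markers (9 of 10 measured) the array mean was 6.69 in untreated replicate 2, 5.67 and 5.79 in untreated replicates 1 and 3, and 5.79 to 5.94 in treated cells. Fibroblast markers (9 of 10) had 5.30 in untreated replicate 2, 4.67 and 4.59 in the other untreated arrays and 4.6 to 4.90 in treated cells. Endothelial markers (8 of 8) had 5.6 in untreated replicate 2, 4.96 and 5.15 in the other untreated arrays and 4.91 to 5.20 in treated cells. No marker can be called absent, because the values carry no detection calls. The part of these marker signals in the results below was not tested, and comparisons with untreated cells are given with and without untreated replicate 2. In bulk RNA of this kind, fewer cells expressing a gene and less RNA per cell cannot be told apart.

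**Figure D1:**
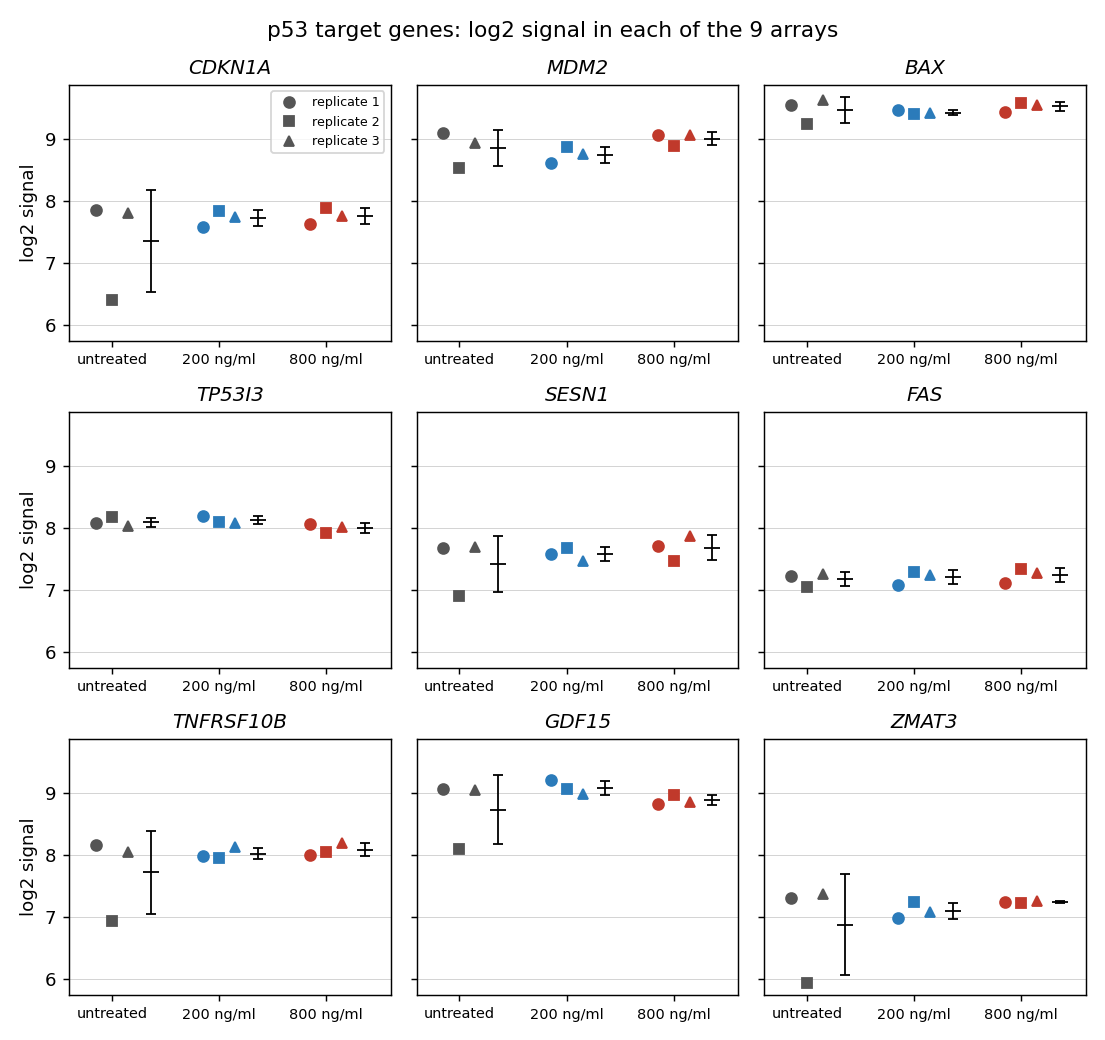
Log2 signal (vertical axis) of the 9 measured p53 target genes in each array of the 3 groups (horizontal axis), with replicates 1, 2 and 3 as circles, squares and triangles and the group mean ± SD (n = 3) in black. Untreated replicate 2 was the lowest of the 9 arrays for every gene except TP53I3.

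CDKN1A encodes p21, the cyclin-dependent kinase inhibitor through which p53 arrests the cell cycle. Its log2 signal (cluster TC0600007847.hg.1) was 7.86, 6.40 and 7.80 in untreated replicates 1, 2 and 3. At 200 ng/ml it was 7.58, 7.84 and 7.74, and at 800 ng/ml it was 7.64, 7.89 and 7.76. The 3 groups overlapped, and the only value outside the band from 7.58 to 7.89 was untreated replicate 2. Without SPARC the group mean was 7.35 ± 0.83 (SD, n = 3), with the lower dose it was 7.72 ± 0.13 and with the higher dose 7.76 ± 0.13. Fitted log2 differences from untreated cells were 0.37 (95% interval −0.36 to 1.10) for the lower dose and 0.41 (−0.32 to 1.14) for the higher (limma, adjusted p = 0.966 and 0.659). Without untreated replicate 2 these differences turned to −0.11 and −0.07, with intervals of −0.40 to 0.18 and −0.36 to 0.22, that is ratios between 0.759 and 1.13 at 200 ng/ml and between 0.780 and 1.16 at 800 ng/ml. Each of these intervals included 0, with or without that array.

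MDM2, the ubiquitin ligase that binds p53 and is itself induced by it, had signals of 9.09, 8.54 and 8.94 in untreated cells (TC1200008116.hg.1). It had 8.61, 8.86 and 8.75 at 200 ng/ml and 9.06, 8.89 and 9.07 at 800 ng/ml. All 3 arrays at 800 ng/ml lay above all 3 at 200 ng/ml, with a gap of 0.02 between the nearest arrays, and the untreated arrays spanned both groups. Between the doses the log2 difference was 0.26 ± 0.20 (SE), with an interval of −0.17 to 0.70 (limma, adjusted p = 0.999). Without untreated replicate 2 the estimate of spread was smaller, and the same difference of 0.26 had an interval of 0.0064 to 0.52, an unadjusted p of 0.0456 and an adjusted p of 0.320 (limma), so the test over all genes was not passed. Against untreated cells MDM2 was at −0.12 (−0.55 to 0.32) for 200 ng/ml and at 0.15 (−0.29 to 0.58) for 800 ng/ml, and without untreated replicate 2 at −0.28 (−0.56 to 0.01) and −0.01 (−0.30 to 0.27). MDM2 had a single cluster on the array, so its annotated starts were not measured apart.

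Among the death-related targets, BAX forms pores in the outer mitochondrial membrane. It had 9.55, 9.24 and 9.64 in untreated cells, 9.46, 9.40 and 9.42 at 200 ng/ml and 9.44, 9.58 and 9.54 at 800 ng/ml (TC1900008505.hg.1). The groups overlapped, and log2 differences from untreated cells were −0.05 (−0.44 to 0.35) and 0.05 (−0.35 to 0.44) at the lower and higher dose, and −0.17 (−0.41 to 0.08) and −0.07 (−0.31 to 0.18) without untreated replicate 2. FAS, the death receptor for FAS ligand, had 7.23, 7.05 and 7.27 in untreated cells, 7.09, 7.30 and 7.25 at 200 ng/ml, and 7.12, 7.35 and 7.27 at 800 ng/ml (TC1000008388.hg.1). Its 9 values spanned 0.30 log2 units, and group means of 7.18 ± 0.12, 7.21 ± 0.11 and 7.25 ± 0.12 (SD, n = 3) differed by less than the SDs. Fitted log2 differences of FAS were 0.03 (−0.36 to 0.41) and 0.06 (−0.32 to 0.45), and −0.04 (−0.31 to 0.24) and −0.0022 (−0.28 to 0.27) without untreated replicate 2. TNFRSF10B, the TRAIL receptor DR5, had 8.17, 6.95 and 8.05 in untreated cells, 7.98, 7.96 and 8.13 at 200 ng/ml and 8.01, 8.06 and 8.21 at 800 ng/ml (TC0800009868.hg.1). The low array was again untreated replicate 2, and the log2 differences of 0.30 (−0.33 to 0.93) and 0.37 (−0.26 to 1.0) turned to −0.09 (−0.36 to 0.19) and −0.02 (−0.29 to 0.25) without it. None of BAX, FAS and TNFRSF10B passed the test in any comparison (limma, adjusted p from 0.659 to 0.999 with all arrays).

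Of the targets that act on metabolism and redox balance, SESN1 (sestrin 1) restrains mTORC1 signalling. It had 7.67, 6.91 and 7.70 in untreated cells, 7.59, 7.68 and 7.46 at 200 ng/ml and 7.71, 7.47 and 7.87 at 800 ng/ml (TC0600012801.hg.1). The groups overlapped, and differences from untreated cells of 0.15 (−0.37 to 0.67) and 0.26 (−0.27 to 0.78) were −0.11 (−0.43 to 0.21) and −0.0026 (−0.32 to 0.32) without untreated replicate 2. TP53I3, a quinone oxidoreductase also known as PIG3, was the only measured gene of the set that was not low in untreated replicate 2. Its signals were 8.08, 8.18 and 8.03 in untreated cells, 8.20, 8.10 and 8.08 at 200 ng/ml and 8.07, 7.92 and 8.02 at 800 ng/ml (TC0200011975.hg.1). Here the 3 arrays at 800 ng/ml lay below the 3 at 200 ng/ml, by a gap of 0.02 between the nearest arrays, and the log2 difference between the doses was −0.13 ± 0.17 (SE; −0.50 to 0.24; limma, adjusted p = 0.999). Against untreated cells TP53I3 was at 0.03 (−0.33 to 0.40) for the lower and −0.10 (−0.46 to 0.27) for the higher dose, and without untreated replicate 2 at 0.07 (−0.17 to 0.32) and −0.05 (−0.30 to 0.19).

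GDF15, a secreted stress cytokine of the TGF-beta family, had 9.06, 8.09 and 9.05 in untreated cells, 9.21, 9.07 and 8.99 at 200 ng/ml and 8.82, 8.98 and 8.86 at 800 ng/ml (TC1900007384.hg.1). The 800 ng/ml arrays all lay below those at 200 ng/ml, again by 0.02 between the nearest, and also below untreated replicates 1 and 3. The log2 difference between the doses was −0.20 ± 0.25 (SE; −0.76 to 0.36) with all arrays and −0.20 ± 0.10 (−0.44 to 0.03) without untreated replicate 2 (limma, adjusted p = 0.999 and 0.383). Against untreated cells the differences were 0.36 (−0.20 to 0.91) at 200 ng/ml and 0.15 (−0.41 to 0.71) at 800 ng/ml, and 0.03 (−0.23 to 0.30) and −0.17 (−0.43 to 0.10) without that array. ZMAT3, a zinc finger protein that binds RNA and regulates splicing, had 7.32, 5.94 and 7.38 in untreated cells, 6.99, 7.25 and 7.09 at 200 ng/ml and 7.24, 7.24 and 7.26 at 800 ng/ml (TC0300013255.hg.1). The 800 ng/ml arrays agreed most closely, with an SD of 0.01, while the untreated SD was 0.81. Differences of ZMAT3 from untreated cells were 0.23 (−0.48 to 0.95) and 0.37 (−0.35 to 1.09), and −0.24 (−0.50 to 0.03) and −0.10 (−0.36 to 0.16) without untreated replicate 2.

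**Figure D2:**
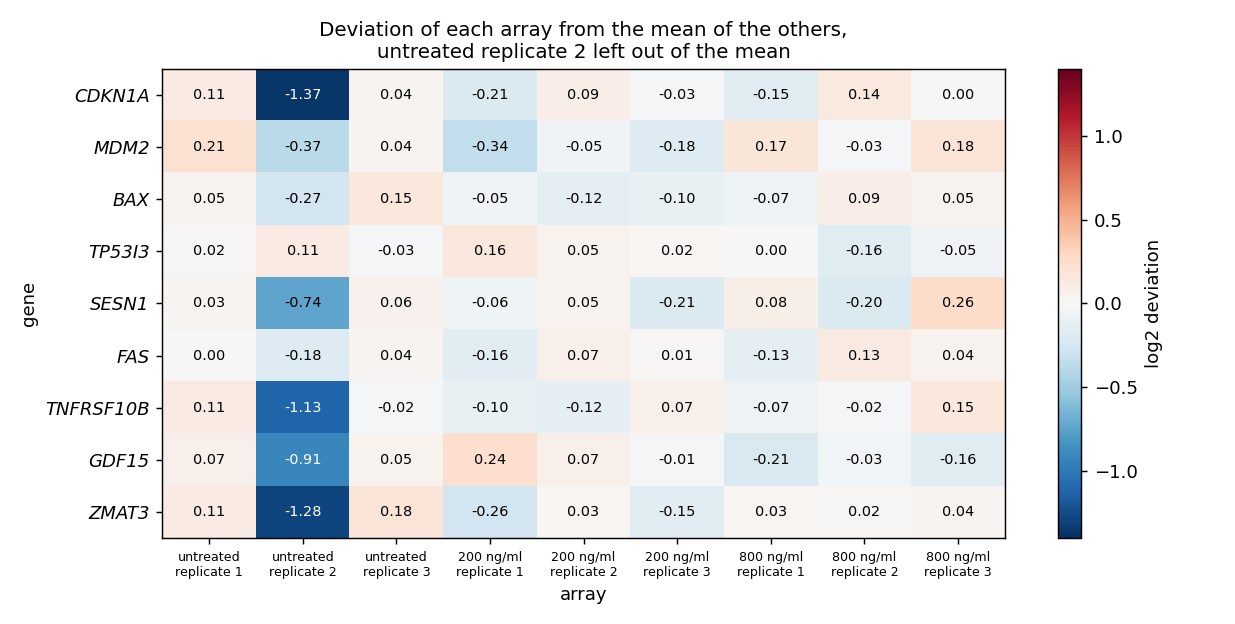
Log2 deviation of each p53 target gene (rows) in each array (columns) from the mean of the other arrays, with untreated replicate 2 left out of every mean. The column of untreated replicate 2 runs from −1.37 for CDKN1A to 0.11 for TP53I3, and no other cell lies beyond −0.34 or 0.26.

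In untreated replicate 2 the target genes were not lowered equally. Set against the other 8 arrays' mean, CDKN1A, ZMAT3 and TNFRSF10B were at ratios of 0.388, 0.411 and 0.458, GDF15 at 0.532 and SESN1 at 0.601. MDM2, BAX and FAS were at 0.772, 0.831 and 0.882, and TP53I3 was at 1.08. All 9 genes belong to the 4422 brightest genes, and 4 of the 9 lay below the median deviation of those genes in this array. CDKN1A stood at percentile 5.7 and ZMAT3 at percentile 9 of the deviations of those bright genes, whereas TP53I3, FAS and BAX stood at percentiles 95.7, 90.4 and 87.7. What sets this array apart was not tested.

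Across the other 8 arrays the genes were steady. The SD over these arrays was between 0.08 for TP53I3 and 0.17 for MDM2, with a median of 0.11 over the 9 genes, against 0.13 for the 4422 brightest genes and 0.20 over all genes. No array had all 9 genes on the same side of the mean of the others. Untreated replicates 1 and 3 were above it for 8 and 7 of the 9 genes and 200 ng/ml replicate 1 for 2 of 9, namely TP53I3 and GDF15. In the 800 ng/ml replicates 1, 2 and 3 the counts were 4, 4 and 6, so the 2 arrays with high neural markers had no common shift of these genes.

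**Figure D3:**
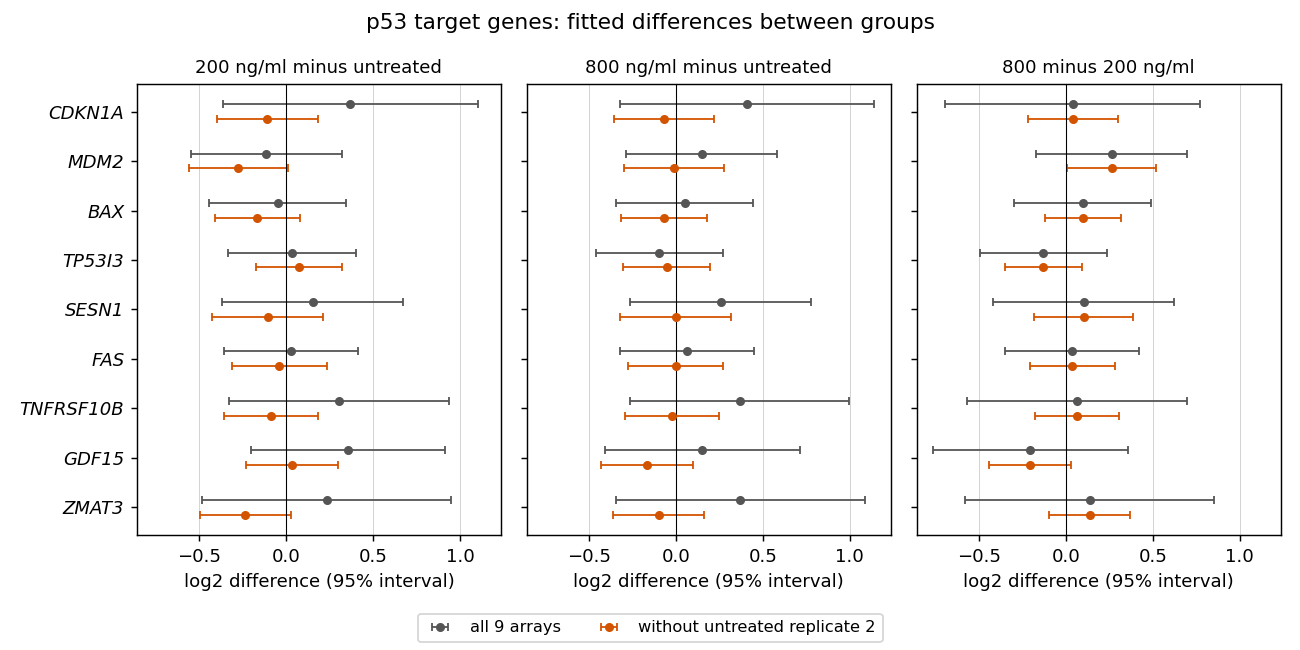
Fitted log2 difference (horizontal axis; point, with its 95% interval) of each p53 target gene (vertical axis) in the 3 comparisons, with all 9 arrays in grey and without untreated replicate 2 in orange. Leaving out that array narrows every interval and moves both comparisons with untreated cells to or below 0 for most genes, and only MDM2 between the doses has an interval that excludes 0.

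In cells given 200 ng/ml SPARC, 0 of the 9 genes passed the test against untreated cells at an adjusted p under 0.05, as did 0% of all genes (limma). At an unadjusted p under 0.05 there were 0 of 9, against 1.78% of all genes, and no gene of the set had groups without overlap, against 6.98% of all genes. Differences were above 0 for 7 of 9 genes, against 54.1% of all genes, with a median of 0.15 for the set and 0.03 for all genes. All 9 genes are among the 4422 brightest, and with the dimmest 50% of genes left out the all-gene median was 0.14. Without untreated replicate 2 the differences were above 0 for 2 of 9 genes, against 47.2%. The medians of the set and of all genes were then −0.11 and −0.02. In that fit 0 of the 9 genes passed at an adjusted p under 0.05 (0% of all genes), and 0 had an unadjusted p under 0.05, against 11.3%. Then MDM2, BAX and ZMAT3 lay below both remaining untreated arrays in all 3 samples, against 17.8% of all genes, and TP53I3 lay above them, against 13.8%. Median deviations of the 4422 brightest genes, with untreated replicate 2 left out of the mean, were −0.08, −0.02 and −0.03 in the 200 ng/ml arrays. In untreated replicates 1 and 3 they were 0.02 and 0.05. After quantile normalization of all 9 arrays 5 of 9 differences were above 0 and the median of the set was 0.05, so no direction of the set was kept over these settings. With arrays weighted by their fit, which gives untreated replicate 2 almost no weight and untreated replicate 1 the most, MDM2 passed with −0.32 (limma, adjusted p = 0.042), as 1 of 1971 genes called in that setting.

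At 800 ng/ml, 0 of the 9 genes passed against untreated cells, with 0% of all genes passing (limma). None had an unadjusted p under 0.05, against 4.17% of all genes, and none had groups without overlap, against 11.2%. Differences were above 0 for 8 of 9 genes, TP53I3 being the exception, against 54.6% of all genes, and the median was 0.15 against 0.04. With the dimmest 50% of genes left out the all-gene median was 0.21, above that of the set. Both comparisons with untreated cells share the untreated arrays, so a like pattern at both doses is not independent. Without untreated replicate 2 all 9 differences were below 0, between −0.17 for GDF15 and −0.0022 for FAS, while 48.2% of all genes were above 0. The median of the set was then −0.05 against −0.01 for all genes. At an adjusted p under 0.05 that fit called 0 of the 9 genes and 0% of all genes, and at an unadjusted p under 0.05 it had 0 of 9 against 5.36%. GDF15 and ZMAT3 lay below both remaining untreated arrays in all 3 samples, against 11.8% of all genes. The 4422 brightest genes had median deviations of 0.02, 0.01 and 0.03 in the 800 ng/ml arrays, beside 0.02 and 0.05 in untreated replicates 1 and 3. Quantile normalization gave 4 of 9 above 0 and a median of −0.06.

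Between 800 and 200 ng/ml, where the difference itself does not use the untreated arrays, 0 of the 9 genes passed and 0% of all genes did (limma). None had an unadjusted p under 0.05, against 2.41% of all genes. MDM2 was the 1 gene whose 800 ng/ml arrays all lay above those at 200 ng/ml, against 12.1% of all genes, and TP53I3 and GDF15 were the 2 whose arrays all lay below, against 9.72%. Differences were above 0 for 7 of 9 genes, against 52.3% of all genes, with medians of 0.06 and 0.01. The all-gene median was 0.06 with the dimmest 50% of genes left out. With the spread estimated without untreated replicate 2, an unadjusted p under 0.05 was reached by MDM2 alone, 1 of 9 genes against 15.3% of all genes, and 0 of the 9 passed when adjusted, as did 0% of all genes. With replicate 1 as the lone 800 ng/ml array, a choice made after seeing the data and one that assumes it varies like the other groups, that is without the 2 arrays high in neural markers, 4 of 9 differences were above 0 and the median was −0.02.

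How large a response could have been missed is given by the intervals. With all arrays the median 95% interval of the set reached 1.44-fold either way, and the interval lay within 1.5-fold either way for 4 of 9 genes at 200 ng/ml, 4 at 800 ng/ml and 3 between the doses, against 24.0%, 20.9% and 25.3% of all genes. Without untreated replicate 2 the median interval reached 1.21-fold against untreated cells and 1.18-fold between the doses. All 9 genes then lay within 1.5-fold in each comparison, against 61.2%, 69.3% and 68.0% of all genes. For CDKN1A, the most widely used readout of p53 activity, the ratio of 800 to 200 ng/ml was 1.03 with an interval of 0.858 to 1.23 in that fit.

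Further genes of the pathway were taken from lists set by known function. Of 40 further genes that p53 is known to activate 33 were measured, and 0 passed in any comparison, with medians of 0.11 at 200 ng/ml, 0.19 at 800 ng/ml and 0.07 between the doses. The medians against untreated cells were, without untreated replicate 2, −0.065 and 0.0047. Beside this list and those below, 0% of all genes passed in each comparison. The all-gene medians were 0.03, 0.04 and 0.01, or 0.14, 0.21 and 0.06 with the dimmest 50% of genes left out. Against untreated cells the all-gene medians were −0.02 and −0.01 without untreated replicate 2. TIGAR, a fructose bisphosphatase that slows glycolysis, had the highest difference at 800 ng/ml. Its signals were 5.67, 4.27 and 5.02 in untreated cells, 5.02, 5.62 and 5.57 at 200 ng/ml and 5.77, 5.87 and 6.06 at 800 ng/ml. The 800 ng/ml arrays lay above all others. At 800 ng/ml 5 of 33 further targets lay higher than untreated cells without overlap and 0 lower, beside 1076 and 909 of 17687 genes. Against 200 ng/ml 10 of 33 lay higher and 2 lower, beside 12.1% and 9.72% of all genes. The log2 difference of TIGAR from untreated cells was 0.91 ± 0.32 (SE, limma, unadjusted p = 0.0145, adjusted p = 0.659), or 0.55 without untreated replicate 2. TIGAR was the 1 further target of 33 with an unadjusted p under 0.05 in that comparison, where 4.17% of all genes had one. RRM2B, a ribonucleotide reductase subunit, followed with 0.48, or 0.065 without that array. The lowest values belonged to TP53AIP1 and SPATA18, −0.62 and −0.45, which were −0.13 and −0.57 without it. At 200 ng/ml POLH, a translesion DNA polymerase, and TIGAR had 0.44 and 0.42, and TP53AIP1 and TRIM22 had −0.33 and −0.25. In the fit without untreated replicate 2 POLH and TIGAR were at 0.028 and 0.055, TP53AIP1 turned to 0.16 and TRIM22 was at −0.22. Between the doses TRIM22, a tripartite motif protein, had 0.52 ± 0.18 (limma, unadjusted p = 0.0142, adjusted p = 0.999) and TIGAR 0.50, with PMAIP1, the BH3-only protein NOXA, at −0.35 and TP53AIP1 at −0.29. TRIM22 was the 1 further target of 33 with an unadjusted p under 0.05 there, against 2.41% of all genes. Its signals were low, from 3.66 to 4.49 over the 9 arrays, where the array medians over all clusters were 5.41 to 5.55. With the spread estimated without untreated replicate 2, 6 of 33 further targets had an unadjusted p under 0.05 between the doses (limma). All were higher, against 15.3% of all genes in either direction. Without that array 3 of 33 lay above untreated cells without overlap at 200 ng/ml and 13 below, against 13.8% and 17.8%. At 800 ng/ml 5 lay above and 3 below, beside 1855 and 2093 of 17687 genes.

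Of 21 regulators of p53, 18 were measured, and 0 passed in any comparison (limma). MDM4, which binds and inhibits p53 beside MDM2, had 6.90, 5.27 and 7.14 in untreated cells, 5.66, 6.77 and 6.54 at 200 ng/ml and 7.01, 7.0 and 6.79 at 800 ng/ml. Its 800 ng/ml arrays lay just above its 200 ng/ml arrays, of which replicate 1 was the lowest, with a log2 difference of 0.61 ± 0.44 (SE; limma, adjusted p = 0.999). Of the 18 regulators 5 lay higher without overlap at 800 than at 200 ng/ml and 4 lower, against 12.1% and 9.72% of all genes. COP1, another ubiquitin ligase of p53, had 0.53 between the doses and 0.82 at 800 ng/ml against untreated cells, and this second value was 0.19 without untreated replicate 2. MDM4 had 0.50 at 800 ng/ml against untreated cells and −0.08 without that array. The lowest values at 800 ng/ml belonged to PPP1R13L (−0.30), an inhibitor of p53, and to the p53 relative TP73 (−0.22), and were −0.25 and −0.20 without that array. At 200 ng/ml TP53BP1 and USP7 had 0.47 each and ATR and KAT5 had −0.24 and −0.12. These values were, without untreated replicate 2, 0.10, 0.11, −0.064 and −0.056. The median of the regulators was 0.086 at 200 ng/ml and 0.20 at 800 ng/ml, and −0.061 and 0.022 without that array. Between the doses CDKN2A and TP73 had the lowest values, −0.31 and −0.24. With the spread estimated without untreated replicate 2, 3 of 18 regulators had an unadjusted p under 0.05 there (limma), all higher. Of all genes 15.3% had one, in either direction.

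**Figure D4:**
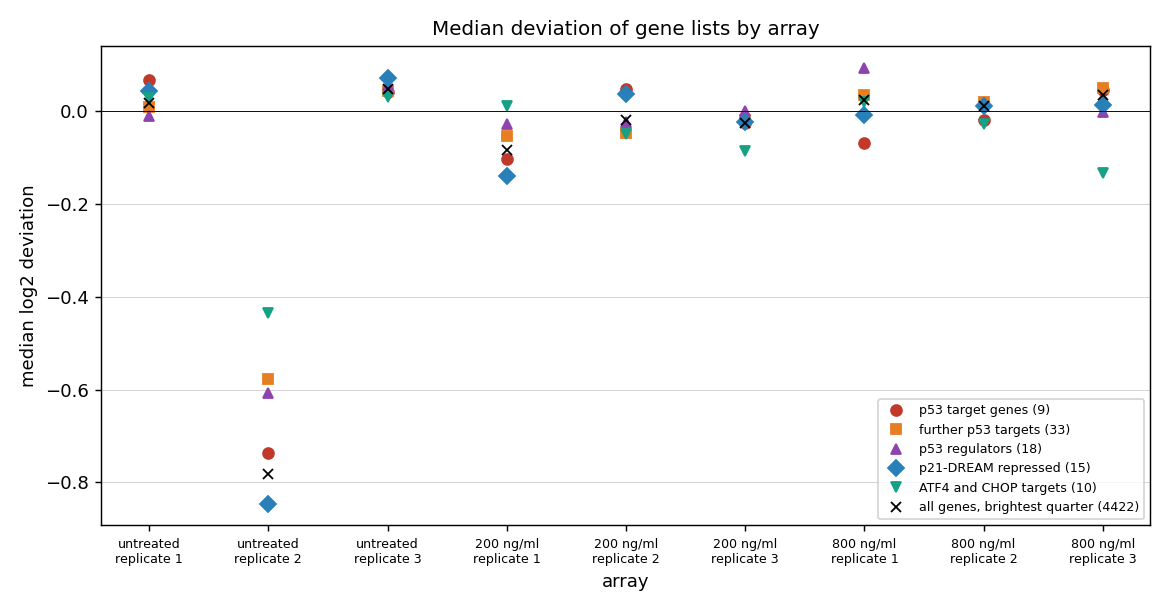
Median log2 deviation (vertical axis) of gene lists of the p53 pathway, of the ATF4 and CHOP targets and of the 4422 brightest genes in each array (horizontal axis). The list of ATF4 and CHOP targets includes the ATF4 and CHOP genes themselves. Deviations are from the mean of the other arrays, with untreated replicate 2 left out of the mean, and numbers of genes stand in the legend. All lists lay below −0.4 in untreated replicate 2 and between −0.14 and 0.09 in the other 8 arrays.

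Cell cycle genes that p21 lowers through the DREAM repressor complex give a readout one step beyond CDKN1A. All 15 were measured, and 0 passed in any comparison (limma). At 800 ng/ml 15 of 15 had a difference above 0, with a median of 0.23, and at 200 ng/ml 14 of 15, with a median of 0.19. Of all genes 54.6% and 54.1% were above 0, and with the dimmest 50% left out the all-gene medians were 0.21 and 0.14. In untreated replicate 2 all 15 lay below the mean of the other arrays, with a median of −0.85, beside −0.78 for the 4422 brightest genes. Without that array 5 of 15 were above 0 at each dose, and the medians were −0.08 at 800 ng/ml and −0.11 at 200 ng/ml. Of all genes 48.2% and 47.2% were then above 0 at these doses, with medians of −0.01 and −0.02. E2F1, a transcription factor of S phase entry, had 0.57 at 800 ng/ml with all arrays and −0.06 without that one, and CCNB1 (cyclin B1) had 0.49 and 0.10. BIRC5 (survivin) and CCNA2 (cyclin A2) had the lowest values at 800 ng/ml, 0.065 and 0.091, and turned to −0.089 and −0.11 without it. At 200 ng/ml CDC25A and E2F1 had 0.62 and 0.60, and CDC25C and BIRC5 had −0.15 and 0.0060. When untreated replicate 2 was left out CDC25A was at 0.15 and CDC25C at −0.47, and E2F1 and BIRC5 turned to −0.035 and −0.15. Between the doses the median was 0.06, with CDC25C and BUB1 at 0.27 and 0.24 and CDC25A and CDC20 at −0.24 and −0.11.

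The ATF4 and CHOP arm is the other input to GDF15 and TNFRSF10B. Its list holds 10 genes, ATF4 and the CHOP gene DDIT3 among them, and shares SESN2 with the further p53 targets. All 10 genes were measured, and 0 passed in any comparison (limma). Their medians were 0.14 at 200 ng/ml, 0.17 at 800 ng/ml and 0.01 between the doses, and −0.01 and −0.04 against untreated cells without untreated replicate 2. CHAC1, an enzyme that degrades glutathione, had −0.89 and −0.94 at the lower and higher dose, and −0.37 and −0.42 without that array, in which its signal was 6.43 against 3.93 to 5.21 elsewhere. ATF4 itself had 0.22 and 0.36, and −0.048 and 0.095 without that array. At 200 ng/ml SESN2 had the highest value, 0.38, and DDIT4 had 0.014, and without that array they were at −0.016 and −0.33. At 800 ng/ml ASNS, asparagine synthetase, had the highest value, 0.45, and PPP1R15A had −0.14, and without it they were at 0.041 and −0.34. Between the doses ASNS and DDIT3, which encodes CHOP, had 0.33 each, whereas PPP1R15A and ATF3 had −0.34 and −0.25.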

How the data were processed

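RNA of 9 HepG2 samples was labelled with biotin and read on a 1-colour array. The authors deposited a table of log2 signals for 21448 transcript clusters. R 3.0 is named per the submitters' processing notes. The log2 scale follows from the values' range. How signals were background-corrected, normalized and filtered was not given in the sources used here. The platform annotation named 17709 clusters with 1 symbol, 0 with several and 3739 with none, and RefSeq names (GRCh38.p14, matched by Entrez identifier) changed 0 symbols. The cluster with the highest mean was kept for each of 17687 genes. A single limma model (version 3.58.1, R 4.3.3, lmFit and eBayes) held all 3 groups, with Benjamini-Hochberg adjustment over all genes, a threshold of 0.05 and two-sided tests. Members were given by symbol and lists by known function, but both, and the alternatives, were chosen with earlier results of these data known. Named genes were all members and, per list and comparison, the 2 highest and 2 lowest differences, since none was called. For the marker lists GFAP, ALB and, as the brightest of their lists, LYZ, ACTA2 and ENG were named. A further gene of the rule is not reported here. The fit was tested on simulated data whose spread came from all arrays except untreated replicate 2. The number of arrays limits the precision. Promoter windows were scanned with numpy 2.4.6.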

Additional observations from a re-analysis of the deposited data

How the results depend on the processing

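No gene of the set passed the test in any comparison under 16 of the 17 alternatives (limma, smallest adjusted p = 0.315). Of 459 values of single genes 41 turned sign, 13 of them without untreated replicate 2. Under settings other than left-out arrays, quantile normalization and array weights, 0 turned sign. Of these other settings only median centring could alter a difference, since the rest keep the same group means. Leaving out an array of the group not compared could not alter a difference either, so many of the 459 values could not turn. Under array weights, which gave untreated replicate 1 a weight of 10.7 and untreated replicate 2 one of 0.0399, 1 gene of the set was called, MDM2 with −0.32 at 200 ng/ml against untreated cells (limma, adjusted p = 0.042). Over all genes 1971 were then called at 200 ng/ml, 732 at 800 ng/ml and 6 between the doses. The values that turned sign under array weights were, at 200 ng/ml, CDKN1A −0.10, SESN1 −0.12, TNFRSF10B −0.099, GDF15 −0.011 and ZMAT3 −0.19, and at 800 ng/ml CDKN1A −0.074, MDM2 −0.083, BAX −0.019, TNFRSF10B −0.053, GDF15 −0.16 and ZMAT3 −0.069. Under quantile normalization they were TP53I3 −0.11 and FAS −0.088 at 200 ng/ml, MDM2 −0.059, BAX −0.13, FAS −0.12 and GDF15 −0.063 at 800 ng/ml, and CDKN1A −0.037, FAS −0.030 and TNFRSF10B −0.00065 between the doses. The cause was not tested.

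Leaving out each array in turn gave these ranges at 200 ng/ml against untreated cells: CDKN1A −0.11 to 0.62, MDM2 −0.28 to 0.0032, BAX −0.17 to 0.032, TP53I3 −0.0018 to 0.074, SESN1 −0.11 to 0.29, FAS −0.039 to 0.086, TNFRSF10B −0.085 to 0.53 and ZMAT3 −0.24 to 0.48. At 800 ng/ml they were CDKN1A −0.070 to 0.66, MDM2 −0.012 to 0.27, BAX −0.069 to 0.13, SESN1 −0.0026 to 0.39, FAS −0.0022 to 0.13, TNFRSF10B −0.021 to 0.59, GDF15 −0.17 to 0.32 and ZMAT3 −0.10 to 0.62. Between the doses they were CDKN1A −0.031 to 0.10 and FAS −0.023 to 0.10. These are the ranges that crossed 0. GDF15 at 200 ng/ml (0.035 to 0.52) and TP53I3 at 800 ng/ml (−0.13 to −0.054) kept their sign. So did the rest of the set between the doses, such as MDM2 with 0.20 to 0.32 and GDF15 with −0.25 to −0.14. Over all genes, 0 to 12 were called at 800 ng/ml against untreated cells and 0 to 15 between the doses, the highest counts without 800 ng/ml replicate 1.

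With the replicate number as a block 0 genes were called in any comparison (limma, smallest adjusted p = 0.985, 0.679 and 0.999). The medians of the set were 0.15, 0.15 and 0.06, which a block balanced over the groups could not alter. Same-numbered samples showed little common deviation: 1 of 9 pairs correlated above 0.1, with r from −0.25 to 0.11. Untreated replicates 1 and 3 correlated alike with 200 ng/ml replicate 1 (−0.25 and −0.24) and with replicate 2 (0.23 each). Deviations were from group means that include untreated replicate 2, so pairs with untreated arrays are a weak check. Averaging all clusters of a gene could not alter the set, which has 1 cluster per gene. Signal over background could not be assessed, since the table gives no detection calls.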
